A study of Mus musculus with 3 samples.

Results

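Nonclassical monocytes, also called patrolling monocytes, were defined in these liver data by their transcripts, and 352 of 36990 cell barcodes met the definition. A barcode was counted when at most 30% of its unique molecular identifiers (UMIs, 1 per captured RNA molecule) were mitochondrial, when it held at least 2 UMIs in the 5 marker genes Treml4, Ear2, Ace, Eno3 and Cd300e together and at least 2 UMIs in the 4 myeloid genes Lyz2, Csf1r, Cx3cr1 and Cybb together, and when Clec4f and Cd5l of Kupffer cells, Cd3e of T cells, Cd79a of B cells and Siglech of plasmacytoid dendritic cells all stood at 0. The control library (CON) held 44 of these cells, the high-fat diet library (HFD) 300 and the carbon tetrachloride library (CCL4) 8.

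All mice were wild-type C57BL/6 males that were 8 weeks old when the groups were formed. CON mice were left untreated, HFD mice ate a diet with 60% of its energy as fat for 4 months, a model of metabolic dysfunction-associated steatohepatitis, and CCL4 mice ate chow for 3 months and were then injected with the liver toxin 2 times per week for 4 weeks. Livers were digested with collagenase, the cells of the 2 mice in a group were pooled, and hepatocytes and nonparenchymal cells were mixed 1:1 before 10x Genomics 3′ sequencing. Each condition was thus 1 library in which the mice could not be told apart, so no test between conditions was possible, and every interval below is a 95% interval that covers counting error only.

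In the mouse, nonclassical monocytes are the Ly6C-low monocytes of the blood, which arise from Ly6C-high classical monocytes and crawl along the inner wall of vessels, where they scan the endothelium and clear debris. Their formation needs the nuclear receptor Nr4a1, with Cebpb upstream of it, and their crawling uses the integrin LFA-1, whose alpha chain is encoded by Itgal. In the liver, they share the sinusoids with Kupffer cells, the resident macrophages, and with classical monocytes that enter injured tissue.

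The libraries held between 34061186 and 49613255 UMIs, with a median of 2173 to 2939 per barcode, and the nonclassical monocytes had medians of 3740 UMIs in CON, 2389 in HFD and 2512 in CCL4. One of the 44 CON cells had 112469 UMIs, 36.5% of all UMIs of the CON members, and carried 3395 UMIs of Pf4, 270 of Ppbp and 63 of Itga2b, which are genes of platelets and their precursors. It met the definition through 2 UMIs of Eno3 and 16 of Lyz2. It was kept in the cell counts and left out of all levels, which therefore rest on 43 cells and 195791 UMIs in CON, 300 cells and 798259 UMIs in HFD, and 8 cells and 20400 UMIs in CCL4. Levels are given as UMIs per 1000000 summed UMIs (CPM), on which scale 3 UMIs, the limit that a count of 0 allows, correspond to 15.3 CPM in CON, 3.76 CPM in HFD and 147 CPM in CCL4. RNA of hepatocytes was present in every cell type: 10 hepatocyte genes summed to 24337, 63958 and 84461 CPM in the nonclassical monocytes of CON, HFD and CCL4, and to 28723, 66532 and 107344 CPM in the T cells of the same libraries. T cells of the same library were therefore compared between conditions in the same way, and their values are given beside many of the genes where they were high or differed too. The libraries shared 36 to 52 barcode sequences pairwise, and 0 to 2 of those were nonclassical monocytes in a given library.

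The cells were chosen by UMIs of the 5 marker and 4 myeloid genes, so the levels of these genes are a description. Treml4, a receptor of the TREM family on myeloid cells, stood at 189 CPM in CON, 332 CPM in HFD and 245 CPM in CCL4. Ear2, a ribonuclease of the eosinophil-associated family, stood at 158, 343 and 588 CPM in the same order. Ace, the enzyme that makes angiotensin II, stood at 332, 207 and 196 CPM. Eno3, a glycolytic enolase, stood at 76.6 and 135 CPM in CON and HFD and had no UMI in CCL4, and Cd300e, an activating receptor of monocytes, stood at 133, 150 and 98.0 CPM. Treml4 and Ear2 were thus highest outside CON, and Ace was highest in CON. Ace was the marker most CON members carried, in 29 of 44 cells (65.9%), whereas Treml4 was in 180 of 300 HFD cells (60.0%) and Ear2 in 174 (58.0%). Few cells carried most of the set: 4 or 5 different markers were seen in 6 of 44 CON cells, 21 of 300 HFD cells and 1 of 8 CCL4 cells, and a single marker gene carried the call in 11, 57 and 2 cells.

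The sequences just before the RefSeq starts of Treml4, Ear2 and Ace are shown because these 3 genes led the marker UMIs. Each run is 250 bases, 5′ to 3′ on the strand of its gene, and capitals mark GAGGAA, the core that sites of the myeloid factor PU.1 hold, or its reverse complement TTCCTC. The positions are GRCm38 coordinates, on the plus strand for all 3 genes: chr17:48264045-48264294 for Treml4 (ENSMUSG00000051682), chr14:44102404-44102653 for Ear2 (ENSMUSG00000072596) and chr11:105967698-105967947 for Ace (ENSMUSG00000020681).
Treml4: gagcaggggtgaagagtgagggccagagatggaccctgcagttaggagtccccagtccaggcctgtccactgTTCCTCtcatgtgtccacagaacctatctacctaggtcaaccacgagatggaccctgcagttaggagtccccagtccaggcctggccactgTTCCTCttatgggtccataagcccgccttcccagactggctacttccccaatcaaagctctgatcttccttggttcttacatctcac
Ear2: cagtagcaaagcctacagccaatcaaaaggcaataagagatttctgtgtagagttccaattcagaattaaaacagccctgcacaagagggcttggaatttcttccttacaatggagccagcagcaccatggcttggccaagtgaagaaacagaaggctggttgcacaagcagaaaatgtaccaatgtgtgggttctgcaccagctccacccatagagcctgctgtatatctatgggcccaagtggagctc
Ace: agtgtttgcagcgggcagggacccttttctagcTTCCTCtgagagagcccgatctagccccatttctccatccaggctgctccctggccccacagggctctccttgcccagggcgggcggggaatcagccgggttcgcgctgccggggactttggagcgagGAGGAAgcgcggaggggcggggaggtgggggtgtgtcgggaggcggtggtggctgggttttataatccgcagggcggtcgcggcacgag
Treml4 had 2 matches, 178 and 87 bases before the start, and Ace had 2, 217 and 89 bases before it. The windows of Ear2, Eno3, Cd300e and the second start of Ace had none. The letters GAGGAA, searched on both strands, occur in 23.3% of 32851 windows of this length before mouse genes, so the matches are a description. AAGGTCA, the core of the site that NR4A receptors bind as monomers, was in none of the 6 windows and is in 4.08% of all windows. In Treml4, the TTCCTC runs follow 2 identical copies of a 40-base stretch that lie 91 bases apart, and an exact repeat at least as long was found in 90 of the 32851 windows (0.274%).

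Reads of the markers could mostly be assigned to 1 gene. Of the 50-base stretches in the last 500 bases of transcripts, where 3′ libraries read, none from Treml4, Ace, Eno3 or Cd300e occurred in another gene. For Ear2, 38.1% of 451 did, in Ear1, Ear6, Ear10 and 2 pseudogenes, and its level is uncertain to that extent. Ear1 had 1 UMI in the HFD members, and Ear6, Ear10 and Ear14 had 0 in all libraries. An antisense gene overlaps Ace and a long noncoding RNA overlaps Ear2, both on the opposite strand.

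The nonclassical monocytes made up different shares of the 3 libraries. Of all barcodes with at most 30% mitochondrial UMIs, they were 0.393% in CON (interval 0.285 to 0.527), 2.31% in HFD (2.06 to 2.58) and 0.0627% in CCL4 (0.0271 to 0.123). The HFD share was 5.89 times the CON share (4.28 to 8.27), and the CCL4 share was 0.160 times it (0.0649 to 0.343). Of barcodes with a UMI of Ptprc, the pan-leukocyte gene CD45, they were 0.815%, 6.77% and 0.306% in CON, HFD and CCL4. These shares count all 44 CON and 8 CCL4 members but 267 of the 300 HFD members, as the others had no Ptprc UMI. Of barcodes with at least 2 UMIs in the 4 myeloid genes, they were 3.34%, 14.9% and 1.65%. HFD was highest and CCL4 lowest over each of the 3 denominators, although over the myeloid barcodes the ratio of CCL4 to CON was 0.494 with an interval of 0.201 to 1.06 that includes 1. These are shares of recovered barcodes of 1 library per condition. More nonclassical monocytes in the tissue, more of them recovered by digestion and gradient, and fewer other cells cannot be told apart.

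**Figure D1:**
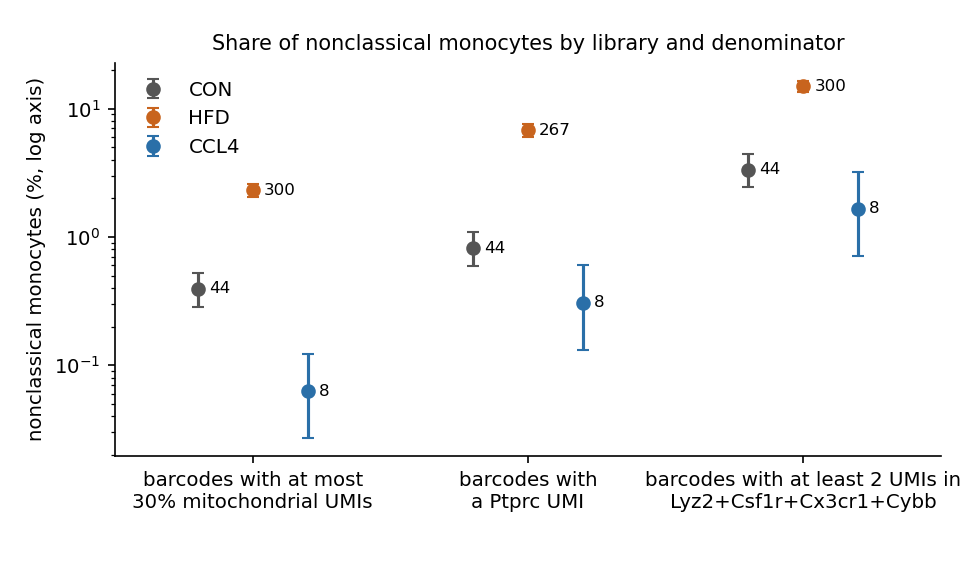
Share of nonclassical monocytes (percent, log axis) in the CON, HFD and CCL4 libraries over 3 denominators; points are the shares and bars are exact 95% binomial intervals. The HFD share is the highest over each denominator, at 2.31% of all barcodes against 0.393% in CON and 0.0627% in CCL4.

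The number of cells depended on the threshold of 2 marker UMIs. Just inside it, 14 CON, 128 HFD and 4 CCL4 members had exactly 2. Just outside it, 75 CON, 259 HFD and 29 CCL4 barcodes had 1 marker UMI and met all other conditions. Adgre4, an adhesion receptor that was not part of the definition, stood at 119 CPM in CON members with exactly 2 marker UMIs and at 39.3 CPM in the CON barcodes with 1, and at 235 and 184 CPM in HFD. Spn, which encodes CD43, stood at 89.5 and 68.1 CPM in CON and at 189 and 145 CPM in HFD. A further 20, 36 and 1 barcodes of CON, HFD and CCL4 met the marker and myeloid conditions but carried a UMI of a gene required at 0.

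Whether the name fits was examined with 21 genes of the nonclassical program that the definition did not use, against classical monocytes of the same library, gated on Ly6c2, Ccr2, Chil3 and F13a1 (347 cells in CON, 704 in HFD, 181 in CCL4). In CON, 13 of the 19 genes that reached 50 CPM in either cell type were higher past 2-fold and 0 were lower, with a median log2 ratio of 1.61. Over all 3988 genes compared in CON, 10.3% were higher and 9.28% lower, with a median of 0.04. In HFD, 14 of 19 were higher and 0 lower, with a median of 1.52, beside 3.50% higher and 3.88% lower among 3456 genes and a median of 0.06. The myeloid genes of the definition and the classical genes of the gate fix part of this contrast, so no test was made.

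Named members of the program show how far apart both monocyte types were. Nr4a1, the receptor needed for this cell type, stood at 1134 CPM in CON and 881 CPM in HFD, against 499 and 473 CPM in classical monocytes. Spn stood at 158 and 247 CPM, against 71.9 and 25.9 CPM. Itgal stood at 1047 and 811 CPM, against 209 and 171 CPM, and was detected in 37 of 43 CON and 232 of 300 HFD members. In T cells, which also use LFA-1, Itgal stood at 342 and 196 CPM. All 3 genes were higher in the nonclassical monocytes of both libraries.

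Several genes of the program had little signal in T cells, which carry the free RNA of the same library. Of those named next, Pou2f2 was seen in 12.0% of CON and 5.51% of HFD T cells. Cebpb was seen in 75.2% and 59.8% of them. Adgre4 stood at 169 CPM in CON and 266 CPM in HFD nonclassical monocytes, at 15.7 and 34.0 CPM in classical monocytes, and at 0.203 and 1.61 CPM in T cells. Fcgr4, the Fc receptor of nonclassical monocytes, stood at 148 and 92.7 CPM, against 18.9 and 17.7 CPM in classical monocytes. Gngt2, a G protein gamma subunit, stood at 644 and 651 CPM, against 97.0 and 224 CPM. The transcription factor Pou2f2 stood at 429 and 341 CPM, against 113 and 90.3 CPM, and Dusp16, a MAP kinase phosphatase, at 194 and 237 CPM, against 19.8 and 34.9 CPM. Cebpb differed little, with 2957 and 2423 CPM against 2244 and 2051 CPM. Thinned to 1000 UMIs per cell, Adgre4 was seen in 17.2% of CON and 24.8% of HFD members, against 2.29% and 3.26% of classical monocytes and 0.0252% and 0.164% of T cells.

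**Figure D2:**
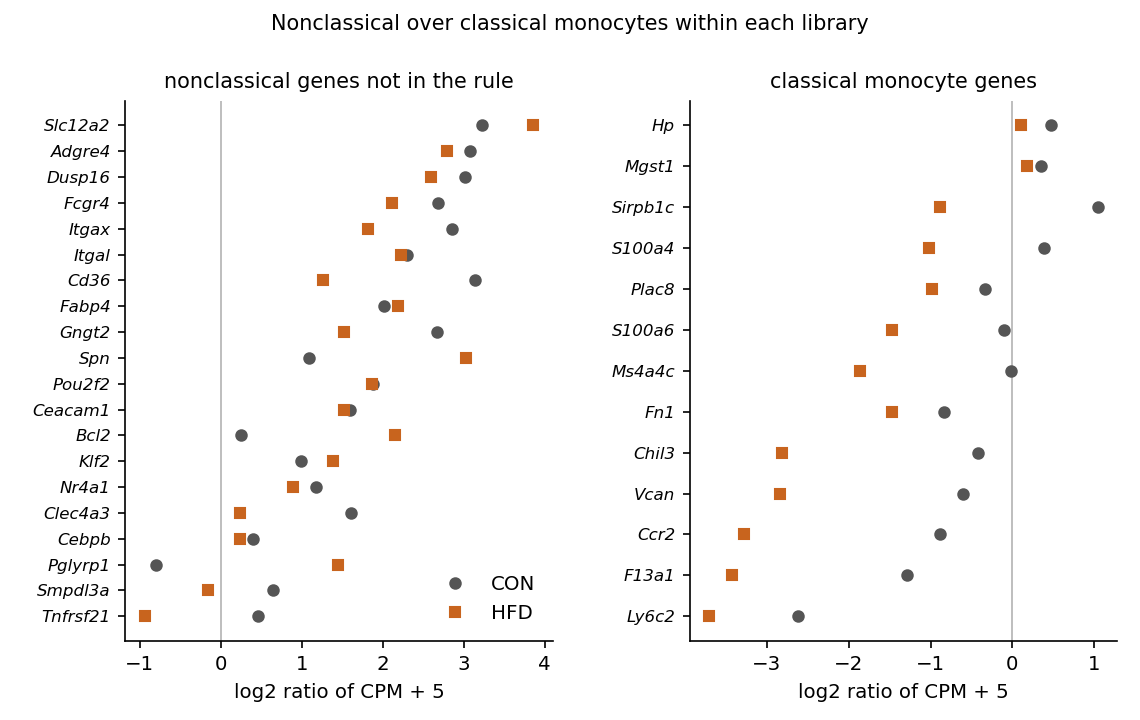
Log2 ratio of CPM plus 5, nonclassical over classical monocytes within CON (circles) and HFD (squares), for genes of the nonclassical program outside the definition (left) and for most of the classical monocyte genes compared (right). Adgre4 lies at 3.07 in CON and 2.79 in HFD, and Ly6c2 at -2.62 and -3.70.

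Classical monocyte genes were less uniform. Ly6c2, Ccr2, Chil3 and F13a1 chose the classical monocytes, so their being lower in the nonclassical monocytes was fixed by the gate. In HFD, 10 of 14 were lower past 2-fold, these 4 included, and 0 were higher, beside 3.88% lower among all genes. The remaining lower genes included Vcan, Fn1, Ms4a4c, S100a4 and S100a6. In CON, 3 of 14 were lower past 2-fold, beside 9.28% of all genes, with Ly6c2 and F13a1 of the gate among them, and Sirpb1c was higher. Ly6c2, which encodes the Ly6C antigen that separates both types in blood, stood at 189 CPM in the CON and 30.1 CPM in the HFD nonclassical monocytes, against 1185 and 451 CPM in classical monocytes. T cells, which express Ly6C themselves, had it in 22.7% of CON and 25.2% of HFD cells, above the 20.9% and 3.67% of nonclassical monocytes.

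The 8 CCL4 cells did not show the program. Its 21 genes summed to 3480 CPM (2718 to 4390) there and to 3527 CPM in CCL4 classical monocytes, whereas in CON and HFD the nonclassical monocytes had 9015 and 8187 CPM and the classical monocytes 4399 and 4186. Spn, Pou2f2, Slc12a2 and Bcl2 had no UMI in the 8 cells, where 3 UMIs would be 147 CPM, and Nr4a1 stood at 392 CPM (169 to 773) with 370 CPM in CCL4 classical monocytes. Of 12 program genes compared with CCL4 classical monocytes, 2 were higher and 2 lower, beside 20.2% higher and 19.9% lower among 3370 genes. CCL4 values are therefore those of barcodes that met the definition, whichever name is used.

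Across the whole transcriptome, 36 genes (0.752% of 4789) were higher and 61 (1.27%) lower past 2-fold than in classical monocytes in all 3 libraries, and 89 (1.99% of 4472) were higher and 87 (1.95%) lower in both CON and HFD. Besides 4 of the markers, the highest were the survival genes Bcl2a1b and Bcl2a1d, Pdgfb, Cyth3, Cd274, Itgax, Adgre4 and Tcf7l2. Pdgfb, a growth factor for pericytes and stellate cells, stood at 86.8 CPM in CON, 51.4 CPM in HFD and 49.0 CPM (1 UMI) in CCL4, against 2.72 to 4.09 CPM in classical monocytes. Cd274, the checkpoint ligand PD-L1, stood at 91.9, 92.7 and 49.0 CPM, against 4.49, 20.9 and 8.19 CPM. Tcf7l2, a transcription factor of the Wnt pathway, stood at 169, 150 and 196 CPM, against 44.5, 32.2 and 57.3 CPM. For Pdgfb, Cd274 and Itgax the CCL4 value is 1 UMI, and all genes named from the 3 libraries rest on few UMIs there. The smallest of their 3 log2 ratios turned to -2.10 for Bcl2a1b, -1.61 for Bcl2a1d, -0.86 for Pdgfb, -2.23 for Cyth3, -1.40 for Cd274 and -0.50 for Itgax under some stricter definitions. The genes lowest in the nonclassical monocytes were of early granulocytes and of dividing cells: Elane, Prtn3, Camp, Mpo, Ctsg, Fcnb and Ms4a3, and Ube2c, Cdca3, Stmn1 and H2ac24, with Ly6c2 among them. Elane stood at 5.11 CPM in CON and 0 in HFD and CCL4, against 2398, 244 and 149 CPM in the classical gate, which therefore also held cells with azurophil granule genes. With only the 188 CON, 658 HFD and 174 CCL4 cells of that gate that had fewer than 2 such UMIs, 22 genes were higher and 33 lower.

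Against Kupffer cells, gated on their own markers (23 cells in CON, 30 in HFD and 7 in CCL4), 95 genes (1.67% of 5690) were higher and 195 (3.43%) lower in all 3 libraries, and 198 (3.89% of 5093) were higher and 368 (7.23%) lower in both CON and HFD. The 21 program genes separated the cells less from Kupffer cells than from classical monocytes. In CON 8 of 19 were higher and 2 lower, beside 11.7% and 16.2% of all genes, and in HFD 10 of 19 were higher and 2 lower, beside 9.12% and 17.8%. In CCL4 2 of 11 were higher and 3 lower, beside 28.1% and 33.2%. Of 11 Kupffer cell genes, 11 were lower in CON and in HFD, but Clec4f, Cd5l, Vsig4 and Timd4 chose the Kupffer cells, and without them 7 of 7 were lower. The highest genes in all 3 libraries were Ace, Smpdl3b, Ifitm6, Trem3, S100a4, Myo1g, Rnase6, Coro1a, Samsn1, Stap1, Nxpe4 and Sema4d. Coro1a, an actin regulator of leukocytes, stood at 710 CPM in CON and 437 CPM in HFD, against 126 and 73.4 CPM in Kupffer cells. S100a4, a calcium-binding protein of motile cells, stood at 633 and 289 CPM, against 22.3 and 31.5 CPM. Clec4f and Cd5l were at 0 by definition, and Vsig4, the complement receptor of Kupffer cells, had 0, 1 and 0 UMIs in CON, HFD and CCL4, against 705, 1143 and 779 CPM in Kupffer cells. Timd4, a receptor for phosphatidylserine on resident macrophages, had no UMI in any of the 3 libraries. The 12 lowest genes also included the endothelial gene Cdh5, at 5.11 CPM in CON and 20.0 CPM in HFD, against 304 and 419 CPM in Kupffer cells. The Kupffer cell gate therefore also held endothelial transcripts, and the 195 lower genes are not all Kupffer cell genes. Kupffer cell genes that the definition did not bar were present in CON all the same, as described next.

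The nonclassical monocytes were not uniform, and CON cells carried more genes of other myeloid cells than HFD cells. C1qa, C1qb and C1qc, which encode the complement component C1q of resident macrophages, summed to at least 3 UMIs in 9 of 43 CON cells (20.9%, interval 10.0 to 36.0), in 2 of 300 HFD cells (0.667%, 0.0808 to 2.39) and in 0 of 8 CCL4 barcodes. In T cells the shares were 0 in CON, 0.243% in HFD and 0 in CCL4. The 9 CON cells held 378 of the 382 C1q UMIs of the CON members (99.0%). They also differed in genes that did not choose them. Axl and Mertk, receptors by which macrophages take up dying cells, stood at 464 and 343 CPM in the 9 cells and at 14.5 and 7.27 CPM in the other 34. Ace stood at 51.5 against 451 CPM, Nr4a1 at 447 against 1425 CPM, and Spn at 0 against 225 CPM, whereas Treml4 was similar at 223 and 174 CPM. Other program genes were present in the 9 cells, with Itgal at 670, Gngt2 at 447 and Pou2f2 at 240 CPM against 1207, 727 and 509 CPM, and Fcgr4 was higher in them, at 223 against 116 CPM. Spn, Slc12a2 and Bcl2 had no UMI in the 9 cells. They thus carried transcripts of some program genes together with macrophage genes. The program as a whole is not confined to nonclassical monocytes. All 21 of its genes summed to 6563 CPM in CON Kupffer cells and 4399 CPM in CON classical monocytes, beside 9015 CPM in all CON members. Which cell type the 9 cells are was not tested.

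MHC class II genes, which present antigen to CD4 T cells, marked a further and partly overlapping set. H2-Aa, H2-Ab1 and H2-Eb1 summed to at least 3 UMIs in 16 of 43 CON cells (37.2%, interval 23.0 to 53.3), in 27 of 300 HFD cells (9.0%, 6.01 to 12.8) and in 6 of 8 CCL4 barcodes (75.0%, 34.9 to 96.8). T cells had shares of 0.490%, 2.02% and 3.54%. The 16 CON cells held 1066 of 1068 UMIs of these genes, and the 27 HFD cells held 439 of 481, which follows in part from choosing the cells by these genes. Of the 9 CON cells with C1q, 7 were also among the 16. In HFD, cells with and without MHC class II had like levels of Spn, at 230 and 249 CPM, of Nr4a1, at 944 and 874 CPM, and of Adgre4, at 293 and 263 CPM. In CON, Spn stood at 72.5 CPM in cells with MHC class II and at 221 CPM in those without.

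Classical monocyte genes marked another set. At least 2 UMIs in Ly6c2, Ccr2, Chil3 and F13a1 together were found in 18 of 43 CON cells (41.9%, interval 27.0 to 57.9), 27 of 300 HFD cells (9.0%, 6.01 to 12.8) and 3 of 8 CCL4 barcodes. T cells, which express Ly6c2 and Ccr2, had shares of 17.7%, 15.7% and 10.8%. In CON, the 18 cells had Spn at 73.8 CPM and Klf2 at 379 CPM, and the other 25 had 238 and 961 CPM. None of the 3 sets was carried by 13 of 43 CON cells (30.2%), 250 of 300 HFD cells (83.3%) and 1 of 8 CCL4 barcodes. The HFD cells were thus mostly of 1 kind by these genes, and the CON cells mostly were not.

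**Figure D3:**
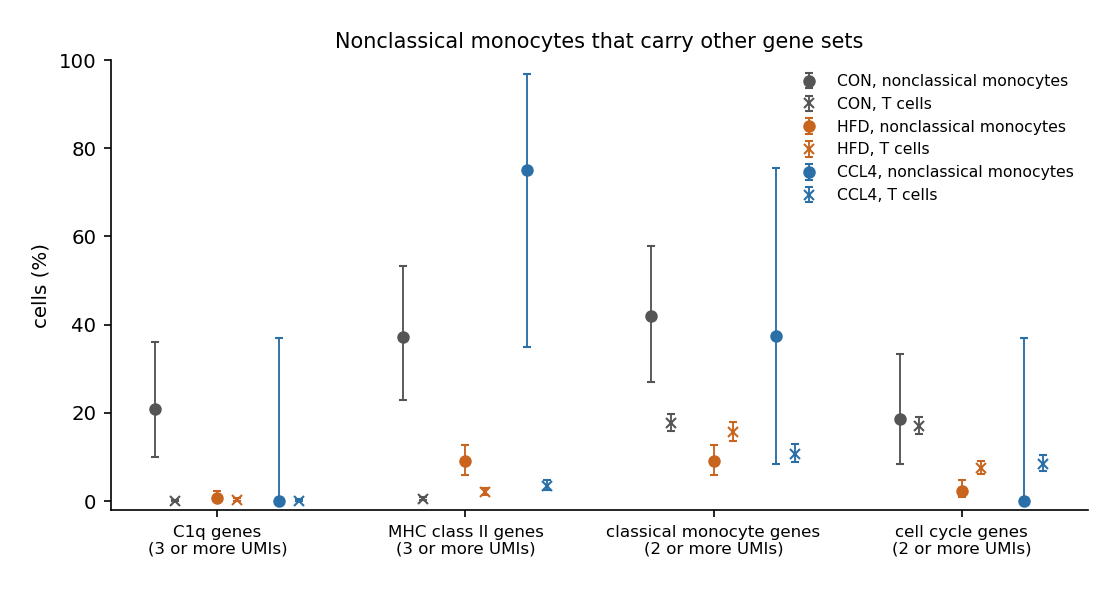
Percent of barcodes that met the definition (circles) and of T cells (crosses) in CON, HFD and CCL4 whose UMIs reached the minimum for C1q, MHC class II, classical monocyte and cell cycle genes; bars are exact 95% binomial intervals. C1q cells were 20.9% in CON and 0.667% in HFD, and MHC class II cells 37.2%, 9.0% and 75.0% in CON, HFD and CCL4.

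Other cell types were sparse among the members. At least 2 UMIs in 6 endothelial genes were found in 0 of 43 CON and 13 of 300 HFD cells (4.33%), and the 13 held 129 of the 136 endothelial UMIs. Natural killer genes reached 2 UMIs in 2 CON and 7 HFD cells, T cell genes in 2 and 10, B cell genes in 2 and 2, and conventional dendritic cell genes in 3 and 1. None of these 5 sets reached 2 UMIs in the 8 CCL4 barcodes. Neutrophil genes outside S100a8 and S100a9 reached 2 UMIs in 8 CON and 8 HFD cells and platelet genes in 3 and 4. Basophil and eosinophil genes had no UMI in any library. Among the HFD cells, the most uneven transcript after thinning was that of the globin Hbb-bs. It had a variance of 39.8 times its mean, with 59 of 300 cells carrying Hbb-bs before thinning and 2 of them holding 36.3% of its UMIs, beside a median of 1.01 over 2977 genes. Ccl5, a chemokine, followed at 12.5, the globins Hba-a1, Hbb-bt and Hba-a2 at 11, 8.93 and 8.24, Hmox1 at 5.18, H2-Aa at 4.25, Fabp4 at 3.96 and Cxcl2 at 3.93.

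How nonclassical monocytes differed between HFD and CON was examined in the summed UMIs, with genes called past 2-fold on the ratio of CPM plus 5. Of 4003 genes with at least 50 CPM in either library, 556 (13.9%) were higher and 587 (14.7%) lower in HFD, with a median log2 ratio of -0.20 that in T cells was -0.17. In most of the higher genes T cells moved the same way: in 425 of the 556, and in 267 of the 587 lower ones, the log2 ratio in T cells had the same sign and at least 50% of the size. This left 131 higher and 320 lower genes in which T cells differed less or the other way.

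The program of the cell type had no more genes past 2-fold than the share of all genes. Of 20 genes that reached 50 CPM, 1 was higher past 2-fold and 2 were lower, beside 13.9% and 14.7% of all genes. The median was -0.09. Nr4a1 had a ratio of 0.777 (0.667 to 0.907), Itgal of 0.774 (0.661 to 0.910), Spn of 1.56 (1.06 to 2.36) and Adgre4 of 1.58 (1.09 to 2.35). These intervals exclude 1, and Itgal was lower in HFD T cells too. They also depend on the CON cells with C1q, which had no Spn UMI. Without the cells with C1q, Spn stood at 247 CPM in HFD and 225 CPM in CON, and Adgre4 at 264 and 211 CPM. Nr4a1 then stood at 884 and 1425 CPM, and Itgal at 810 and 1207 CPM. Gngt2, at 651 against 644 CPM, and Ceacam1, at 138 against 148 CPM, differed by less than counting error. The 2 lower genes were Itgax, at 23.8 against 76.6 CPM, and Tnfrsf21. The higher one was Fabp4, a fatty acid carrier, at 282 against 46.0 CPM (ratio 6.13, 3.17 to 13.6), with T cells at 61.5 and 31.2 CPM. Of its 225 UMIs in HFD, 115 were in the 13 cells with endothelial genes. The other 287 cells stood at 147 CPM, with 77 of them carrying the transcript. With the platelet barcode kept, the median of the program was 0.53.

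**Figure D4:**
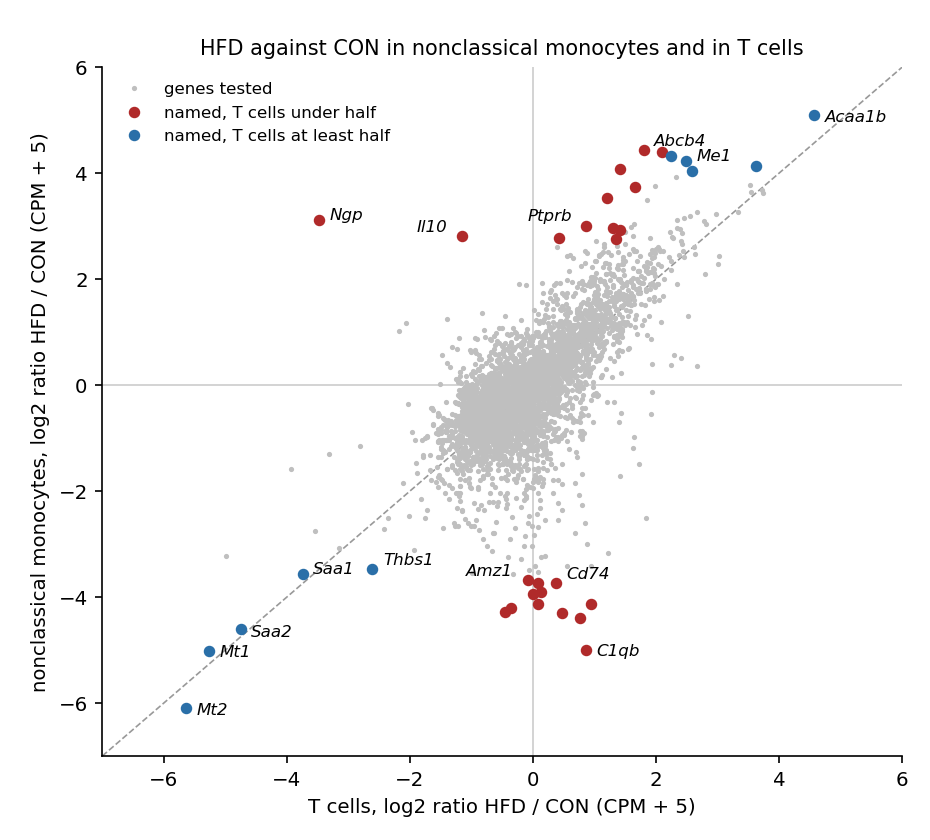
Log2 ratio of CPM plus 5, HFD over CON, in nonclassical monocytes (vertical) against T cells (horizontal) for the genes tested; red points are named genes in which T cells moved less than 50% as far or the other way, blue points the other named genes, and the dashed line marks equal ratios. Mt2, Mt1, Saa2 and Saa1 lie near the line at -6.10 to -3.57, and C1qb at -5.00 and Il10 at 2.82 lie away from it.

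The highest genes in HFD included many that hepatocytes express. Of 10 hepatocyte genes, 5 were higher and 0 lower in the nonclassical monocytes, with a median of 1.04. Acaa1b, of peroxisomal fatty acid oxidation, stood at 1382 against 35.8 CPM, with T cells at 1413 and 54.8 CPM. Me1, Ehhadh, Cldn3 and the stromal proteoglycan Dcn also had T cell ratios of at least 50% of the size, and 52 of the 62 Dcn UMIs lay in 2 cells. Even among the 12 highest genes that passed the T cell criterion, Abcb4 and Abcb11, transporters of the bile canaliculus, Ces2a, Tmprss6, Car8, Upb1, Suox, Tm4sf4 and Hsd11b1 had HFD levels of 52.6 to 153 CPM, and T cells had them at 55.4 to 178 CPM in HFD. Abcb4 had 82 UMIs in HFD and 0 in CON, so that it was at least 6.70-fold higher against 3 UMIs in CON. The granule gene Ngp (66 UMIs) lay in 2 HFD cells, and the endothelial phosphatase Ptprb (61 UMIs) lay in 12, all of them among the cells with endothelial genes. The part of free RNA in these ratios was not tested gene by gene. Where T cell levels were subtracted from the hepatocyte genes, 135 of 2714 genes tested were higher in HFD, in place of 556 of 4003. The subtraction lowers these genes by construction and leaves fewer to test, so the drop does not show how much was free RNA.

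Il10, which encodes the anti-inflammatory cytokine interleukin 10, was the exception among the 12. It had 82 UMIs in 29 of 300 HFD cells and 2 UMIs in 1 of 43 CON cells, which is 103 CPM (interval 81.7 to 128) beside 10.2 CPM (1.24 to 36.9). HFD thus exceeded CON by a factor of 10.1 (2.70 to 84.4) in UMIs. That interval takes UMIs as independent, although both CON UMIs lay in 1 cell, and is therefore too narrow. By cells with a UMI, the shares were 9.67% in HFD and 2.33% in CON. The CON cell was one of the 9 with C1q, and the other 34 CON cells had no Il10 UMI. In T cells it stood at 5.47 CPM in HFD and 18.3 CPM in CON, in classical monocytes at 2.72 and 2.25 CPM, and in Kupffer cells at 168 and 156 CPM. The 2 cells with the most Il10 held 19.5% of its HFD UMIs. After thinning, it was seen in 6.16% of HFD and 0.669% of CON members and in 0.349% and 1.65% of T cells. Within the HFD library it stood at 179 CPM in cells with MHC class II and at 94.5 CPM in those without. The log2 ratio of HFD over CON lay between 2.02 and 5.04 over all alternatives. In CCL4 it had no UMI in 8 barcodes, a limit of 147 CPM.

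The genes lowest in HFD included macrophage genes. C1qb stood at 21.3 against 838 CPM (ratio 0.0254, 0.0145 to 0.0420), and C1qa, C1qc, Axl, Mertk and Trem2 were likewise among the 12 lowest that T cells did not share. The Kupffer cell list had 5 genes tested, the 3 C1q genes, Adgre1 and Slc40a1, and all 5 were lower, with a median of -4.13. Without the 9 CON and 2 HFD cells with C1q the median was -0.06, which that choice of cells fixes for the C1q genes. Cd74, the class II chaperone, stood at 328 against 4423 CPM (ratio 0.0742, 0.0644 to 0.0853). Several other genes rested on 1 or 2 CON cells: Cxcl9 had 52 UMIs in 2 cells, Cstdc4 17 UMIs in 1 and Ccl22 12 UMIs in 1. Il1a had 18 UMIs in 5 CON cells and 0 in HFD. Amz1, a metalloprotease gene, was spread more widely, with 21 UMIs in 15 of 43 CON cells and 3 UMIs in 3 of 300 HFD cells, or 107 against 3.76 CPM. Its log2 ratio was -3.68, and -4.05 when cells with C1q, MHC class II or classical genes were left out. In classical monocytes it stood at 22.9 CPM in CON and 30.4 CPM in HFD. Mt1 and Mt2, the metallothioneins, the acute-phase genes Saa1 and Saa2, and Thbs1 were lower in T cells as well. With T cell levels subtracted the log2 ratios of Saa2 and Saa1 turned to 2.23 and 2.77. In CON the T cells had more of both than the members (8084 and 6371 against 7723 and 6022 CPM), so the CON levels were set to 0. In HFD the members stood at 313 and 501 CPM beside 295 and 472 CPM in T cells, so these 2 ratios rest on small remainders. Without cells of the 3 sets the ratio of Thbs1 turned to 2.42.

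Summed over the members, MHC class II was lower in HFD. All 6 genes that reached 50 CPM were lower past 2-fold, with a median of -3.10: H2-Aa stood at 276 against 2217 CPM, H2-Ab1 at 120 against 1338 CPM, H2-Eb1 at 207 against 1900 CPM and H2-DMa at 16.3 against 169 CPM. The sum over the list was 968 CPM in HFD, 10164 CPM in CON and 7794 CPM in CCL4, and 173, 109 and 255 CPM in T cells. In classical monocytes it was 1329, 1859 and 2110 CPM, and in Kupffer cells 7298, 15775 and 8484 CPM, in the same order. The median was -2.44 without the C1q cells and -1.21 without cells of all 3 sets, which by its construction leaves out the cells with most class II UMIs and compares 250 HFD with 13 CON cells. In members outside the MHC class II set, H2-Aa, H2-Ab1 and H2-Eb1 summed to 58.3 CPM in HFD (42 UMIs) and 17.7 CPM in CON (2 UMIs). The lower sum in HFD thus did not hold in those cells, which were chosen by these genes.

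**Figure D5:**
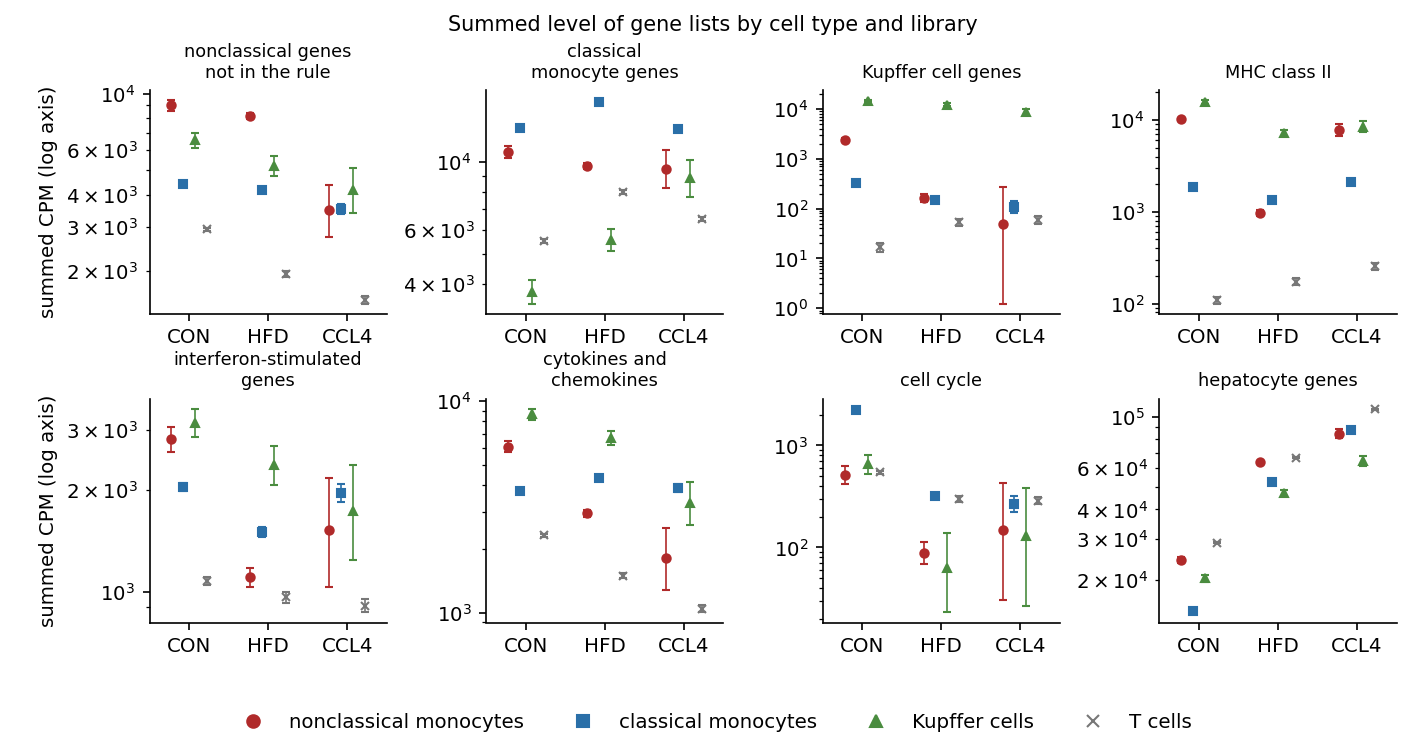
Summed CPM (log axes) of 8 gene lists in nonclassical monocytes, classical monocytes, Kupffer cells and T cells of CON, HFD and CCL4; bars are exact 95% Poisson intervals and are often smaller than the symbols. MHC class II stood at 10164 and 968 CPM in the nonclassical monocytes of CON and HFD and at 7794 CPM in the 8 CCL4 barcodes that met the definition, and hepatocyte genes at 24337, 63958 and 84461 CPM.

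Inflammatory mediators were mostly lower in HFD. Of 12 cytokine and chemokine genes, 8 were lower past 2-fold and Il10 was higher, beside 14.7% lower and 13.9% higher among all genes, and the median was -1.33. Cxcl2, which draws neutrophils, stood at 530 against 1783 CPM, with T cells at 54.7 and 170 CPM. Ccl4 stood at 219 against 1093 CPM, with T cells at 1051 and 1581 CPM, Ccl2 at 15.0 against 112 CPM and Ccl3 at 152 against 368 CPM. Il1b, the main secreted interleukin 1, stood at 1418 against 1440 CPM (ratio 0.985, 0.863 to 1.13). This ratio is of all members together. In those outside the MHC class II set, Il1b stood at 1403 CPM in HFD and 805 CPM in CON. In those within it, Il1b stood at 1556 and 2309 CPM. Without the C1q cells the median of the list was -0.66. Of 7 genes of the Toll-like receptor list, Cd14, at 133 against 475 CPM, and Nfkbia, the inhibitor of NF-kB, at 575 against 1435 CPM with T cells at 429 and 471 CPM, were lower. Tlr4 itself was near the limit of detection, with 4 UMIs in 3 of 43 CON cells, 4 UMIs in 4 of 300 HFD cells and 0 in CCL4. Interferon-stimulated genes were lower in 5 of 6, with a median of -1.57: Ifi27l2a stood at 101 against 684 CPM, with T cells at 142 and 175 CPM, and Ly6e at 531 against 1272 CPM, while Bst2 stood at 303 against 286 CPM.

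Transcription factors and receptors are read beside the 14.7% of all genes that were lower and the 13.9% that were higher in HFD. Of 18 transcription factors, 5 were lower, among them Nr4a3, Irf5, Maf and Zeb2, and 0 were higher, with a median of -0.50. Irf5, a factor of inflammatory activation, stood at 47.6 against 143 CPM, and Spi1, which encodes PU.1, at 302 against 383 CPM. Klf2 stood at 863 against 679 CPM. Of 13 adhesion genes, Itgax, Selplg and Cd44 were lower, and Itgb2, the partner chain of Itgal, stood at 327 against 322 CPM. Of 7 trafficking receptors, 2 were lower, Ccr2 among them at 63.9 against 230 CPM with T cells at 64.1 and 72.6 CPM. Cx3cr1, the fractalkine receptor that keeps these cells alive and was used in the definition, stood at 184 against 138 CPM. Of 5 Fc receptors, Fcgr3 was lower, at 18.8 against 138 CPM, and Fcgrt was higher, at 95.2 against 40.9 CPM with T cells at 82.8 and 20.5 CPM. Of 13 genes of survival and growth factor reception, Csf3r and Bcl2l11 were lower, a count at the share of all genes. Bcl2l11, a death-promoting gene, stood at 41.3 against 169 CPM, with T cells at 65.1 and 155 CPM. Csf1r, the receptor on which monocytes depend and also part of the definition, stood at 371 against 383 CPM.

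In the metabolic and growth lists, the same shares of 13.9% higher and 14.7% lower among all genes apply. Of 12 lipid handling genes, Fabp4, Fabp5 and Apoe were higher and Lpl and Msr1 lower. Apoe, at 10961 against 4433 CPM, had 10572 CPM in HFD T cells. Of 10 genes of lipid-associated macrophages, Cd9, Fabp5 and Apoe were higher and 7 lower, among them Trem2, Gpnmb and Lpl. Cd9 stood at 210 against 97.0 CPM. Of 9 glycolytic genes, Pkm was lower, which is no more than the share of all genes. Of 8 complement genes, Cfp and the 3 C1q genes were lower. Of 15 immediate-early and heat-shock genes, Fosb, Egr1, Atf3, Hspa8 and Hsp90aa1 were lower, with a median of -0.62. The cell cycle list had 3 genes past 50 CPM, Top2a, Pcna and Stmn1, all lower. At least 2 cell cycle UMIs were seen in 8 of 43 CON cells (18.6%) and 7 of 300 HFD cells (2.33%), with 17.0% and 7.53% in T cells. Of 13 classical monocyte genes, 7 were lower, Mgst1 was higher, at 4571 against 1292 CPM with 4742 CPM in HFD T cells, and the median was -1.12. Of 6 neutrophil genes, S100a8, S100a9 and Ngp were higher and Csf3r lower. The 2 HFD cells with the most S100a9 held 69.1% of its 728 UMIs. Of the single gene tested in each list of other cells, Ptprb of endothelium was higher, Pf4 of platelets and Tcf4 of plasmacytoid dendritic cells were lower, and the B cell gene was within 2-fold, as were all 4 erythroid genes.

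For CCL4, 8 barcodes with 20400 UMIs allow only a coarse reading, in which 1 UMI is 49.0 CPM and a gene therefore reached 50 CPM with 2 UMIs. Against CON, 848 of 3957 genes (21.4%) were higher past 2-fold and 1255 (31.7%) lower, and against HFD 663 of 3588 (18.5%) were higher and 882 (24.6%) lower. Genes that rest on fewer than 5 UMIs in the higher library are not named. CON and HFD are each used in 2 of the 3 comparisons of conditions, so the comparisons share libraries. The nonclassical program was lower past 2-fold in 15 of 19 genes against CON and in 13 of 18 against HFD, and higher in none. These counts include genes without a UMI in the 8 barcodes, such as Slc12a2, Bcl2 and Pglyrp1. Their CON and HFD levels lay under 147 CPM, the limit that a count of 0 allows in CCL4, so a fall in them cannot be shown. In T cells the program summed to 2927 CPM in CON, 1947 CPM in HFD and 1543 CPM in CCL4. MHC class II was higher than in HFD in all 5 genes tested, with a median of 3.05, and differed from CON by a median of -0.38. H2-Aa had 43 UMIs in 6 of the 8 barcodes, of which 2 held 76.7%, or 2108 CPM, against 276 CPM in HFD and 2217 CPM in CON. Basp1 had 6 UMIs in 3 barcodes, or 294 CPM, against 15.0 CPM in HFD and 184 CPM in CON.

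Other genes higher in CCL4 were Hamp2, Gls2, Hsd17b6, Abcb4 and Apoa4, with 5 to 8 UMIs each. All 5 are expressed by hepatocytes, and T cells of the CCL4 library had log2 ratios over the same reference library of 6.83 for Hamp2, 3.16 for Gls2, 3.67 for Hsd17b6, 1.39 for Abcb4 and 4.54 for Apoa4. Among the lower genes, Hbb-bs, Hba-a1, Ccl5 and S100a9 had no UMI in the 8 barcodes, but 2 CON cells held 97.0% of the Hbb-bs UMIs, 90.0% of those of Ccl5 and 90.8% of those of S100a9. Ccl4 had 214 UMIs in CON and 0 in CCL4, with T cells at 1581 and 802 CPM, and Klf6, an immediate-early zinc finger factor, had 106 UMIs in CON, 274 in HFD and 0 in CCL4, where 3 UMIs are 147 CPM.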

How the data were processed

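UMI counts per gene and barcode were deposited by the authors as 1 filtered matrix per library, made with Cell Ranger 7.2.0 per the file headers, with 55357 Ensembl gene identifiers, and no further normalization. The submitters' processing notes also name Seurat and GRCm39, whereas the study's methods name mm10; the identifiers do not settle which was used, so gene and promoter positions are those of GRCm38 annotation and RefSeq. Aldoa, which is listed under 2 identifiers, was left out.

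Nonclassical monocytes were taken by the definition given in the report, and the UMIs of a cell type were summed per library and scaled to 1000000 (CPM). A gene was compared when it reached 50 CPM in either group, 5 was added to both levels, and a ratio past 2-fold was called. With 1 pool of 2 mice per condition there were no replicates, so no p-value was computed. Intervals at 95% are exact Poisson (levels), Clopper-Pearson (shares) and exact conditional binomial (ratios). Shares of cells carrying a gene were also computed after thinning each cell to 1000 UMIs. No doublet caller was run, and leaving out the 5% of barcodes with the most UMIs is an alternative. The CON barcode with over 1% of its UMIs in platelet genes was left out of levels after its values were seen.

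Named genes were the members of 29 fixed lists and, per comparison, the 12 highest and lowest genes and the 5 highest and lowest among those shared with T cells, without mitochondrial, ribosomal protein and predicted genes. Against CCL4, those resting on fewer than 5 UMIs in the higher library were not named, a restriction added after the values were seen. The definition, the lists and the tests were chosen with earlier results of these data known, so they give no independent support. Some genes of the lists were counted but are not reported here by name. Alternatives changed the definition, the scaling, the minimum level and the added constant. The scripts were tested on simulated data and ran in Python 3.11.15 with numpy 2.4.6, scipy 1.17.1, pandas 2.3.3 and matplotlib 3.10.9.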

Additional observations from a re-analysis of the deposited data

Results flagged for a closer look

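Wfdc17, a small secreted protein gene of myeloid cells, differed from classical monocytes in opposite directions in both larger libraries. The log2 ratio of nonclassical over classical monocytes was 1.35 in CON (1195 against 467 CPM) and -2.02 in HFD (246 against 1013 CPM). Trem3, a receptor of the TREM family, did the reverse, at -1.02 in CON (30.6 against 67.4 CPM) and 1.02 in HFD (61.4 against 27.7 CPM). Its CON level rests on 6 UMIs in 6 of 43 cells, where 3 UMIs are 15.3 CPM. With 1 library per condition, neither difference was tested.

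One CON barcode that met the definition carried 3395 UMIs of the platelet gene Pf4, a signal outside the genes of the definition. Barcodes with the marker and myeloid UMIs that also had a UMI of the Kupffer cell genes Clec4f or Cd5l, which the definition bars, numbered 13 in CON, 11 in HFD and 1 in CCL4.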

How the results depend on the processing

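No paired analysis was possible because each condition is 1 library, and for the same reason no replicate could be left out. Of the counts and shares recomputed, 166 stayed near their value and 69 moved; of the list medians 151 stayed, 35 moved and 1 turned; of the values of named genes 1928 stayed, 215 moved and 27 turned. The causes were not tested, except that higher minimum levels test fewer genes and stricter definitions leave fewer cells. HFD had the highest and CCL4 the lowest share under every denominator.

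The CON share of 0.393% became 0.259% with at least 3 marker UMIs, 0.0982% after thinning, 0.223% with Ly6c2 and Ccr2 at 0, 0.815% of Ptprc barcodes and 3.34% of myeloid barcodes. The HFD share of 2.31% became 1.32% with 3 marker UMIs, 1.87% with 2 different markers, 0.678% after thinning, 2.06% with 8 further genes at 0, 2.03% with Ly6c2 and Ccr2 at 0, 1.69% without Ear2, 6.77% of Ptprc and 14.9% of myeloid barcodes. The CCL4 share of 0.0627% became 0.306% and 1.65% over the latter 2, and it dropped to 4 of 12761 barcodes with 3 marker UMIs, after thinning and without Ear2. HFD over CON was 9.08 with Ly6c2 and Ccr2 at 0 and 8.31 over Ptprc barcodes, and CCL4 over CON was 0.376 and 0.494 over Ptprc and myeloid barcodes.

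For HFD against CON, 872 genes were higher and 1503 lower after thinning, 975 and 1106 at a minimum of 20 CPM, and 186 and 135 at 200 CPM. Subtracting T cell levels left 135 higher of 2714 genes tested, adding 20 CPM left 372 lower, and without cells carrying C1q, MHC class II or classical genes 1421 were lower. For CCL4 against CON, the higher genes were 1488 with 3 marker UMIs, 1686 with 2 markers, 1632 with 3 myeloid UMIs, 1469 after thinning, 1651 with 8 further genes at 0, 1702 with Ly6c2 and Ccr2 at 0, 1501 without Ear2, 1864 when scaled outside mitochondrial and the 20 most abundant genes, 1775 at 20 CPM and 241 at 200 CPM, and the lower genes 2254 after thinning, 3076 at 20 CPM and 222 at 200 CPM. For CCL4 against HFD, the higher genes in the same order were 1409, 1572, 1490, 1482, 1576, 1529, 1397, 1596, 1503 and 128, and the lower ones 1408 with 3 marker UMIs, 1400 without Ear2, 2521 at 20 CPM and 140 at 200 CPM.

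Against classical monocytes, the genes higher in all 3 libraries were 10 at 200 CPM, 19 with 20 CPM added and 22 without azurophil granule cells, and the lower ones 127 after thinning, 92 with Ly6c2 and Ccr2 at 0, 22 at 200 CPM, 29 with 20 CPM added and 33 without azurophil granule cells. Against Kupffer cells, the higher ones were 152 when scaled outside abundant genes, 143 at 20 CPM, 28 at 200 CPM and 55 with 20 CPM added, and the lower ones 299 after thinning and 89 at 200 CPM.

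Directions that turned were, on the log2 scale, Itgax at -0.50 with 3 marker UMIs, after thinning and with 8 further genes at 0; Bcl2a1b at -2.10 with 2 markers, after thinning and without Ear2; Bcl2a1d at -1.61 and Sema4d at -3.27 after thinning; and Pdgfb at -0.86, Cyth3 at -2.23 and Cd274 at -1.40 with 8 further genes at 0. In HFD against CON, Ngp was -2.67 after thinning and -1.18 with 8 further genes at 0, and Cxcl9 was 0.97 after thinning. Without the C1q cells Cxcl9 was 1.47 and C1qa 1.01, and without cells of all 3 sets Cxcl9 was 0.70, C1qa 1.17, Axl 0.39, Mertk 0.39, Thbs1 2.42 and the median of the Kupffer cell list 0.29. With T cell levels subtracted, Saa2 was 2.23 and Saa1 2.77 in HFD against CON, Saa2 1.70 in CCL4 against CON, and Apoa4 -1.62 in CCL4 against HFD. A level below that of T cells was set to 0 there, as for Saa2 and Saa1 in CON and Apoa4 in CCL4, so these turns rest on small remainders in the other library. Without azurophil granule cells, Elane was 0.46 and Camp 3.06. The settings on the platelet barcode, the C1q cells, the 3 sets and the azurophil granule cells were chosen after seeing the data. The median of all genes in HFD against CON was -0.20, and -0.46 after thinning, -0.54 with T cell levels subtracted and -0.07 when scaled outside abundant genes.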
